A study of Homo sapiens with 12 samples.

Results

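Transcripts of 10 genes that NF-κB is known to regulate were followed across 2 genotypes and 2 treatments of HCT116 cells, a human colorectal carcinoma line with intact p53. The genes were taken by name from the 60580 genes listed in each library and were *CXCL1*, *CXCL2*, *CXCL3*, *CXCL8* and *CCL20* (chemokines), *NFKBIA* and *TNFAIP3* (inhibitors of the pathway), *RELB* (a subunit of NF-κB), *BIRC3* (a ubiquitin ligase) and *ICAM1* (a surface adhesion protein). RNA was sequenced from wild-type (*WT*) cells and from cells in which *miR-34a* and *miR-34b/c* had both been deleted (*miR-34a/b/c-KO*, here also KO), each after 48 h with the solvent DMSO or with 5-FU (5-fluorouracil, 4 µM), an antimetabolite used against colorectal cancer. The labels give 3 biological replicates per group. Neither they nor the study's methods say whether the replicates are different clones, although both genotypes were derived as single-cell clones after CRISPR/Cas9 transfection. If the replicates were technical, the p-values would measure technical spread only. If they were repeat cultures of the same clone of a genotype, the p-values between genotypes would measure the spread of cultures. Genotype could then not be told apart from clone.

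The library labelled as *WT* 5-FU replicate 1 held the same count as *WT* DMSO replicate 3 for every one of the 60580 genes, and was left out, so that *WT* 5-FU had 2 libraries and the other groups 3. The remaining 11 libraries held 22831415 to 39064210 counts. The deleted hairpins *MIR34A*, *MIR34B* and *MIR34C* had 0 counts in every library of both genotypes, so these data do not check the genotype labels by the deleted genes. All 7 epithelial markers examined were detected, with summed levels of 5810 to 12918 CPM, normalized counts per 1000000, over the libraries, and *PTPRC*, the defining marker of leukocytes, had at most 1 count in any library. The marker lists moved with the groups, and their part in the results below was not tested. The summed epithelial markers were at 5810 to 6126 CPM in DMSO libraries of both genotypes, 11757 to 12918 CPM in *WT* 5-FU and 9148 to 9617 CPM in KO 5-FU libraries. With 5-FU 4 of the 7 rose more than 1.5-fold in *WT* and in KO cells. These were *KRT8* (log2 fold change 1.30 and 0.75), *KRT18* (1.12 and 0.74), *KRT19* (1.12 and 0.61) and *CDH1* (0.70 and 0.68), with FDR between 1.9e-12 and 1.32e-07 (edgeR). *EPCAM*, of the same list, went the other way by less than 1.5-fold, from a mean of 432 to 330 CPM in *WT* and from 420 to 301 CPM in KO cells. *KRT18* was lower in KO than in *WT* cells with 5-FU (-0.69, FDR = 4.72e-09). The sum of 8 fibroblast and endothelial markers, of which 3 were tested, was 23.6 to 28.4 CPM in *WT* DMSO, 47.7 to 52 in KO DMSO, 56.1 to 66.8 in *WT* 5-FU and 72.1 to 73.4 CPM in KO 5-FU libraries, most of it *COL1A1*. *COL1A1*, a collagen chain, was higher in KO cells in DMSO (0.93, FDR = 1.94e-07) and rose with 5-FU in *WT* cells (1.13, FDR = 2.22e-08). *VWF*, a clotting protein of endothelial cells, rose by 2.10 in *WT* (FDR = 4.13e-08) and 0.62 in KO cells (FDR = 0.0117), with a difference of -1.48 (FDR = 0.00086), and with 5-FU was lower in KO cells (-1.85, FDR = 3.83e-07), whereas *DCN*, a defining fibroblast gene, had at most 1 count in any library.

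NF-κB dimers are held in the cytoplasm by IκB proteins, of which *NFKBIA* encodes the best known member. Signals from cytokine receptors, Toll-like receptors or damaged DNA activate the IKK kinases, IκBα is degraded, and the dimers enter the nucleus and bind κB sites in the promoters of their targets. Among these targets are *NFKBIA* and *TNFAIP3* themselves, which shut the pathway down again, and chemokines that attract neutrophils and other leukocytes. miR-34a, miR-34b and miR-34c are microRNAs induced by p53.

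The promoters are shown first because the κB site is what marks a gene as a target of NF-κB. Genes known as its targets are known largely through such sites, so the share of these promoters with a match follows from the choice of genes and is given as a description. RefSeq promoters (GRCh38.p14, 250 bases before to 50 bases after the start site) were matched for 9 of the 10 genes, all except *RELB*. A κB consensus on either strand, or the 9-base core GGAATTTCC or GGAAATTCC, was present in 9 of these 9 promoters, whereas 6.12% of all 35116 promoters and 7% of the 16208 promoters of the genes tested held one. The consensus alone was found in 7 of the 9 and in 5.91% of all promoters, and the core in 6 of the 9 and in 0.461% of all promoters. The core lies within a consensus match in *CXCL1*, *CXCL2*, *CXCL3* and *NFKBIA*, and stands alone in *CXCL8* and *ICAM1*. A match is a description of these letters and does not show binding.

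The 3 genes that were called higher with 5-FU in both genotypes are shown by the 200 bases before the start site, with the κB matches in capitals. *TNFAIP3* and *BIRC3* have 2 matches each, and the match of *ICAM1* lies at bases -186 to -178.
ICAM1 (chr19:10270920-10271119, plus strand): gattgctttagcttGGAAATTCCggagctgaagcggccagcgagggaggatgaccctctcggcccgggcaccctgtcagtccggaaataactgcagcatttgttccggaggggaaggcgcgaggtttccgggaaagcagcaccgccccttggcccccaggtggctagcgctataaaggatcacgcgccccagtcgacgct
TNFAIP3 (chr6:137867059-137867258, plus strand): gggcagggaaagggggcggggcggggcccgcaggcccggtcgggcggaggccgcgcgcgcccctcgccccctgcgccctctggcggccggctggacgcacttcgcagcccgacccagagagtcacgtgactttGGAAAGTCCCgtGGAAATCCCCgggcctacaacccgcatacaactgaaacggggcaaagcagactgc
BIRC3 (chr11:102317284-102317483, plus strand): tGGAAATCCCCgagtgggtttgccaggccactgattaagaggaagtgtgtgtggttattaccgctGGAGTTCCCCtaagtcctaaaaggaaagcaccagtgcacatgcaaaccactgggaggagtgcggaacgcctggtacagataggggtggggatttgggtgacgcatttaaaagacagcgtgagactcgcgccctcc

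The chemokine promoters and that of *NFKBIA* are shown by the 120 bases before the start site, since these genes carry a κB match at a similar place and yet had very different transcript levels.
CXCL1 (chr4:73869273-73869392, plus strand): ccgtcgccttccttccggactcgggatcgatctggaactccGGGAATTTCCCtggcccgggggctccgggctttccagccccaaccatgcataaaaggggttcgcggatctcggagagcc
CXCL2 (chr4:74099196-74099315, minus strand): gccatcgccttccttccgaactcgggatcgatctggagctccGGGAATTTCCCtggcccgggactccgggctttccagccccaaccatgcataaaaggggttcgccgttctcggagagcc
CXCL3 (chr4:74038690-74038809, minus strand): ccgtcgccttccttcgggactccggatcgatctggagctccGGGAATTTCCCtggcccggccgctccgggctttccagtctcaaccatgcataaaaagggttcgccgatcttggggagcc
CXCL8 (chr4:73740449-73740568, plus strand): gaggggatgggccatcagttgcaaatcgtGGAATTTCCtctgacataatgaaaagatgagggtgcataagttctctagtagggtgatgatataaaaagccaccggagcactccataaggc
CCL20 (chr2:227813722-227813841, plus strand): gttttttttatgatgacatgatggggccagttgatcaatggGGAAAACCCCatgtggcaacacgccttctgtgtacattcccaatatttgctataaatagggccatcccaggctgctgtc
NFKBIA (chr14:35404750-35404869, minus strand): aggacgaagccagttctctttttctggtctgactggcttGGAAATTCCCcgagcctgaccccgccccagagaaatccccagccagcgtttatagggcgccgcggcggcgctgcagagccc
The windows of *CXCL1* and *CXCL2* were identical at 93.4% of aligned bases, those of *CXCL1* and *CXCL3* at 90.8%, and those of *CXCL2* and *CXCL3* at 88.4%. All 3 hold the same 11 capital letters, with a consensus match on each strand.

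**Figure D1:**
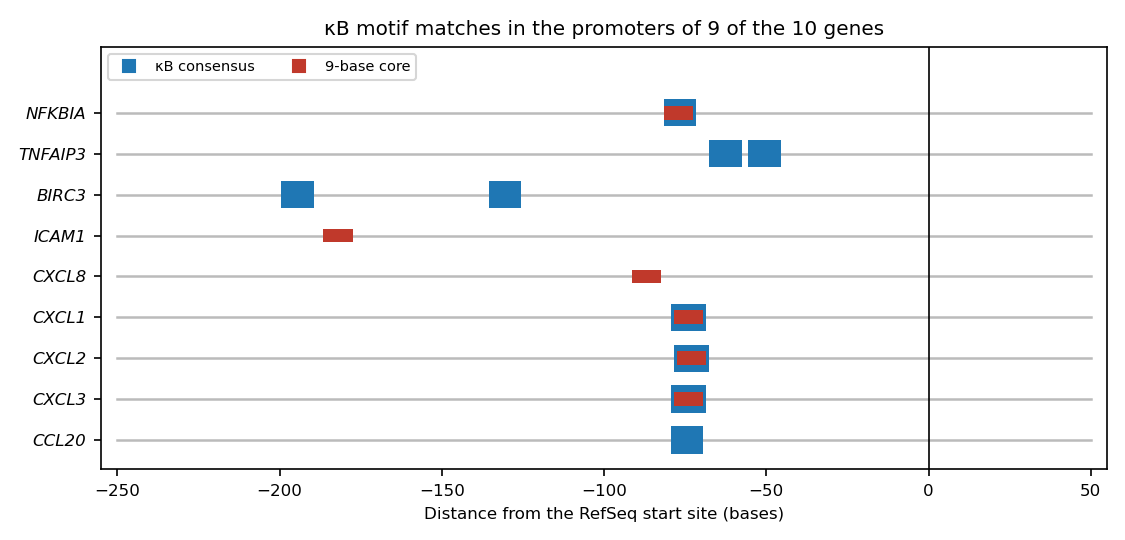
κB matches in the promoters of 9 genes, drawn to scale from 250 bases before to 50 bases after the RefSeq start site (x axis, bases). Blue boxes are matches of the κB consensus and red boxes matches of the 9-base core. In 7 promoters the matches lie between bases -91 and -46, and in *ICAM1* and *BIRC3* they lie farther out, between -199 and -126.

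CPM stands for the count of a gene per 1000000 counts of its library after upper-quartile scaling. Changes were tested with edgeR's quasi-likelihood test over the 16123 genes that reached 20 counts in 1 library or more, and a gene was called when its FDR (Benjamini-Hochberg) was below 0.05 and it changed more than 1.5-fold. 7 of the 10 genes passed the filter on low counts, and *CXCL2*, *CXCL3* and *CCL20* did not. *ICAM1* passed only through its 5-FU libraries and *CXCL1* and *CXCL8* through some of their libraries, whereas *NFKBIA*, *TNFAIP3*, *RELB* and *BIRC3* had at least 20 counts in all 11. In bulk RNA, more RNA of a gene per cell and more cells that express it cannot be told apart.

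After 5-FU, transcripts of an adhesion protein, a feedback inhibitor and a survival gene rose in both genotypes, by 2.01-fold to 20.4-fold. Of the chemokines, *CXCL8* (2.24-fold) and *CXCL1* (1.98-fold) were called higher in *WT* cells only. No chemokine of the set exceeded 2.8 CPM in any library, and *ICAM1*, with the largest fold, did not exceed 4.35 CPM. In *WT* cells 5 of the 10 genes were called higher with 5-FU (*ICAM1*, *TNFAIP3*, *CXCL8*, *BIRC3* and *CXCL1*) and none lower, where 18.5% of all tested genes were called higher and 9.38% lower. In KO cells 4 were called higher (*ICAM1*, *TNFAIP3*, *BIRC3* and *RELB*) and none lower, where 13.3% of all tested genes were called higher and 12% lower. Between genotypes, *CXCL8* alone was called in DMSO, higher in KO cells (all genes tested, 9.1% higher and 4.97% lower), and *BIRC3* and *RELB* were called in 5-FU, both higher in KO cells (all genes tested, 7.58% higher and 10.6% lower). The median log2 fold change of the 7 tested genes was 1.01 in *WT* and 0.94 in KO cells with 5-FU, beside 0.03 and -0.06 for all genes tested. Since genes at low counts entered the test through the libraries in which they were high, these counts and medians describe the 7 genes that passed and not the whole set.

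**Figure D2:**
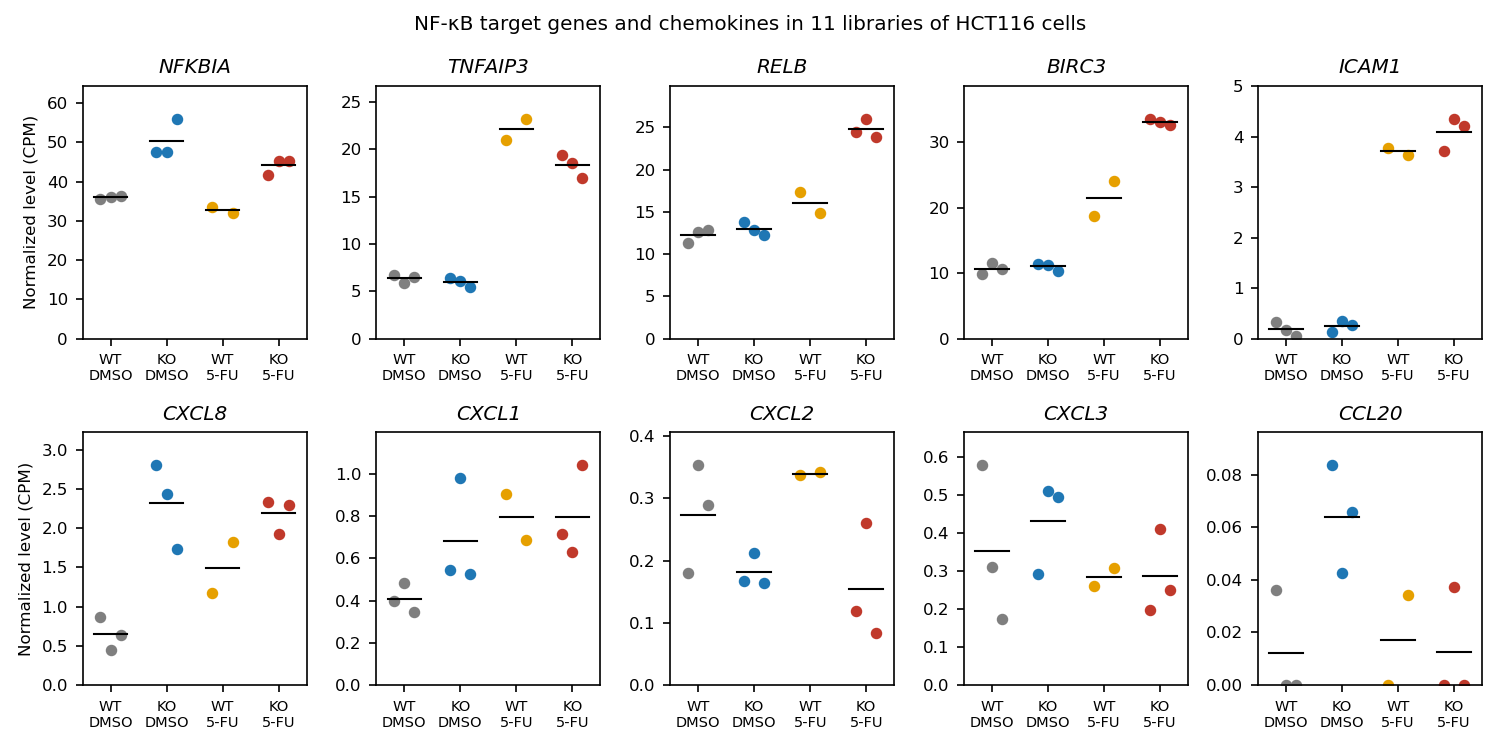
Normalized level (CPM, y axis from 0, a different scale in each panel) of the 10 genes in each of the 11 libraries, grouped by genotype and treatment. Points are libraries and horizontal lines group means. *ICAM1*, *TNFAIP3* and *BIRC3* were above all DMSO libraries in every 5-FU library, *NFKBIA* was higher in KO than in *WT* libraries under both treatments, and *CCL20* did not exceed 0.0835 CPM.

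The genes differed widely in level. Per kilobase of the canonical GENCODE transcript, mean levels in *WT* DMSO cells ran in the order *NFKBIA* (23.1 ± 0.269 CPM per kb, SD, n = 3), *RELB* (5.42 ± 0.385), *BIRC3* (1.55 ± 0.127), *TNFAIP3* (1.36 ± 0.0984), *CXCL8* (0.394 ± 0.129), *CXCL1* (0.349 ± 0.0594), *CXCL3* (0.328 ± 0.191), *CXCL2* (0.246 ± 0.0782), *ICAM1* (0.0628 ± 0.045) and *CCL20* (0.0144 ± 0.025). *BIRC3* and *TNFAIP3* overlapped within their spread, as did *CXCL8*, *CXCL1*, *CXCL3* and *CXCL2*. In KO cells with 5-FU the first 4 places were the same, and *ICAM1* (1.38 ± 0.111 CPM per kb, n = 3) had moved to the fifth, within its spread of *CXCL8* (1.33 ± 0.136).

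*ICAM1* encodes the adhesion protein to which leukocyte integrins bind (chr19:10271093-10286615, plus strand, 7 exons). It was barely transcribed in DMSO and rose in every 5-FU library of both genotypes. Its level was 0.325, 0.176 and 0.0579 CPM in the *WT* DMSO libraries and 0.125, 0.34 and 0.263 CPM in the KO DMSO libraries, which rest on 2 to 9 counts each. With 5-FU it was 3.78 and 3.63 CPM in *WT* and 3.72, 4.35 and 4.21 CPM in KO cells, with 94 to 146 counts each. No 5-FU library overlapped a DMSO library, and the genotypes overlapped under each treatment. The rise was 20.4-fold in *WT* cells (log2 fold change 4.35, 95% confidence interval 3.59 to 5.10, FDR = 2.86e-08, edgeR) and 16.5-fold in KO cells (4.05, 3.35 to 4.74, FDR = 2.19e-08). With 1 library left out, the estimate ran from 3.83 to 5.07 in *WT* and from 3.76 to 4.32 in KO cells. The difference between the 2 responses was -0.30 (log2, -1.51 to 0.90, FDR = 0.734), and its width follows from the few counts in DMSO.

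The integrin and chemokine receptors that these ligands engage were read from a list of 7 genes, of which 2 passed the filter. Neither reached 20 counts in a DMSO library, so both entered the test through their 5-FU libraries, and that both were called higher with 5-FU is a description of the 2 genes and not of the list. *ITGAM*, a subunit of an integrin that binds ICAM1, was at 0.353 to 0.521 CPM in *WT* DMSO libraries, 6.76 and 4.83 CPM in *WT* 5-FU and 10.1 to 11.1 CPM in KO 5-FU. Its log2 fold change with 5-FU was 3.77 in *WT* (FDR = 2.52e-10) and 4.36 in KO cells (FDR = 1.02e-11), and with 5-FU it was higher in KO than in *WT* cells (0.86, FDR = 0.000166). *CXCR2*, the receptor of CXCL1, CXCL2, CXCL3 and CXCL8, had 1 to 9 counts in *WT* DMSO libraries and 104 and 63 counts in *WT* 5-FU, a log2 fold change of 3.51 (FDR = 5.64e-06), and rose by 3.37 in KO cells (FDR = 5.33e-06). The partner subunit *ITGB2* and *CCR6*, the receptor of CCL20, had at most 6 and 3 counts in any library. *ITGAM* is also a marker of myeloid cells: of 9 immune cell markers, at most 4 had 20 counts in any library of a group, their sum was 16.3 to 22.6 CPM in DMSO and 40.1 to 46.9 CPM in 5-FU libraries, and *CD68*, which other cells also express in their lysosomes, held most of it. In *WT* and KO cells *CD68* rose with 5-FU by 1.03 (FDR = 4.31e-08) and 0.82 (FDR = 2.17e-07). *CSF1R* rose in *WT* cells (1.70, FDR = 0.00864) and with 5-FU was lower in KO than in *WT* cells (-2.45, FDR = 0.00182). It reached 20 counts only in the *WT* 5-FU libraries (30 and 25 counts) and entered the test through them, so these values are a description. *LYZ* was higher in KO cells in DMSO (1.94, FDR = 0.000457) and fell there with 5-FU (-0.90, FDR = 0.0318). Both *CSF1R* and *LYZ* stayed below 2 CPM on average.

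*TNFAIP3* encodes A20, a ubiquitin-editing enzyme that restrains IKK activation (chr6:137867214-137883314, plus strand, 9 exons). It rose in both genotypes. Its level was 6.67, 5.82 and 6.54 CPM in *WT* DMSO, 6.43, 6.04 and 5.46 CPM in KO DMSO, 21 and 23.2 CPM in *WT* 5-FU and 19.4, 18.5 and 17 CPM in KO 5-FU libraries. Every 5-FU library was above every DMSO library, and with 5-FU both *WT* libraries were above the 3 KO libraries. 5-FU raised it 3.46-fold in *WT* (log2 fold change 1.79 ± 0.10, SE; FDR = 2.31e-10, edgeR) and 3.07-fold in KO cells (1.62 ± 0.10; FDR = 4.45e-10). The responses differed by -0.17 (95% confidence interval -0.47 to 0.12, FDR = 0.384). In 5-FU the level in KO cells was lower by a log2 fold change of -0.27 (FDR = 0.0235), below the 1.5-fold threshold. The FDR of this small difference rose above 0.05 with TMM factors (0.0519), with DESeq2 (0.112) and with no filter on low counts (0.0526). It did so without KO 5-FU replicate 3 as well (0.0902). The lncRNA *WAKMAR2* overlaps *TNFAIP3* on the opposite strand.

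*NFKBIA*, which encodes IκBα (chr14:35401079-35404749, minus strand, 6 exons), did not follow *TNFAIP3*. It had the highest level of the 10 genes and differed by genotype, with values of 35.6, 36.1 and 36.4 CPM in *WT* DMSO, 47.6, 47.5 and 56 CPM in KO DMSO, 33.5 and 32.1 CPM in *WT* 5-FU and 41.7, 45.4 and 45.4 CPM in KO 5-FU libraries. All 6 KO libraries were above all 5 *WT* libraries. KO cells had 1.4-fold more in DMSO (log2 fold change 0.49, 95% confidence interval 0.34 to 0.64, FDR = 3.69e-05, edgeR) and 1.35-fold more in 5-FU (0.43, 0.26 to 0.60, FDR = 0.00033), both below the fold threshold. Its log2 fold change with 5-FU was -0.13 in *WT* (FDR = 0.159) and -0.19 in KO cells (FDR = 0.0272).

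Of the 10 genes, *NFKBIA* was also the only one whose canonical 3′ untranslated region held the 7 letters complementary to the seed of miR-34a (bases 2 to 8, in capitals). The site is printed with 10 flanking bases on each side and with the mature 5p sequences of 2 of the deleted microRNAs (RefSeq, GRCh38.p14). The seed window of miR-34b is shifted by 1 base.
hsa-miR-34a-5p: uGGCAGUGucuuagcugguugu
hsa-miR-34b-5p: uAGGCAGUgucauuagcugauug
NFKBIA site: ccacactgcaCACTGCCtggcccaaaa
The same 7 letters were present in 2304 of 13105 tested genes with a 3′ untranslated region, or 17.6%, and a match does not show that the microRNA binds. The other 9 genes had no such match in the transcript searched.

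*RELB* and *BIRC3* were highest in KO cells with 5-FU. *RELB* encodes a subunit that pairs with p52 in the non-canonical arm of the pathway (chr19:45001461-45038192, plus strand, 12 exons). Its level was 11.3, 12.6 and 12.9 CPM in *WT* DMSO, 13.8, 12.9 and 12.2 CPM in KO DMSO, 17.3 and 14.9 CPM in *WT* 5-FU and 24.5, 26 and 23.9 CPM in KO 5-FU libraries. The 3 KO 5-FU libraries were above all others. 5-FU raised it 1.92-fold in KO cells (log2 fold change 0.94 ± 0.08, SE; FDR = 8.28e-08, edgeR). In *WT* cells the log2 fold change was 0.40 (FDR = 0.00169), below the fold threshold, and with 5-FU KO cells had 1.54-fold more than *WT* cells (0.62, FDR = 4.02e-05). The difference between the responses was 0.54 (0.27 to 0.81, FDR = 0.00557), also below the fold threshold.

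*BIRC3* encodes cIAP2, a ubiquitin ligase that acts beside the TNF receptor and limits cell death (chr11:102317484-102339403, plus strand, 9 exons). Its level was 9.81, 11.6 and 10.6 CPM in *WT* DMSO, 11.4, 11.3 and 10.4 CPM in KO DMSO, 18.8 and 24.1 CPM in *WT* 5-FU and 33.6, 33.1 and 32.7 CPM in KO 5-FU libraries. The groups in DMSO overlapped, and the 3 KO 5-FU libraries lay above both *WT* 5-FU libraries. 5-FU raised it 2.01-fold in *WT* (log2 fold change 1.01 ± 0.10, SE; FDR = 3.29e-07, edgeR) and 3.01-fold in KO cells (1.59 ± 0.09; FDR = 3.85e-10), and with 5-FU KO cells had 1.55-fold more (0.63, FDR = 5.57e-05). The difference between the responses was 0.58 (0.29 to 0.88, FDR = 0.00583), just below the fold threshold.

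The calls of *RELB* and *BIRC3* lie close to the 1.5-fold threshold, and the 2 *WT* 5-FU libraries decide them. Where 1 of these 2 is left out, here and for the chemokines, the lone *WT* 5-FU library is assumed to vary like the libraries of the other groups. Without *WT* 5-FU replicate 3 the difference of *RELB* between genotypes in 5-FU was 0.52 (FDR = 0.000488), and without replicate 2 that of *BIRC3* was 0.46 (FDR = 0.000811), both positive and below the threshold. The differences between the responses passed it with TMM factors, at 0.60 for *RELB* (FDR = 0.0028) and 0.64 for *BIRC3* (FDR = 0.00266), and with DESeq2. Of all tested genes, 3.42% were called with a more positive and 6.66% with a more negative response in KO cells. Among the 10 genes, only *CXCL8* was called for this difference.

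**Figure D3:**
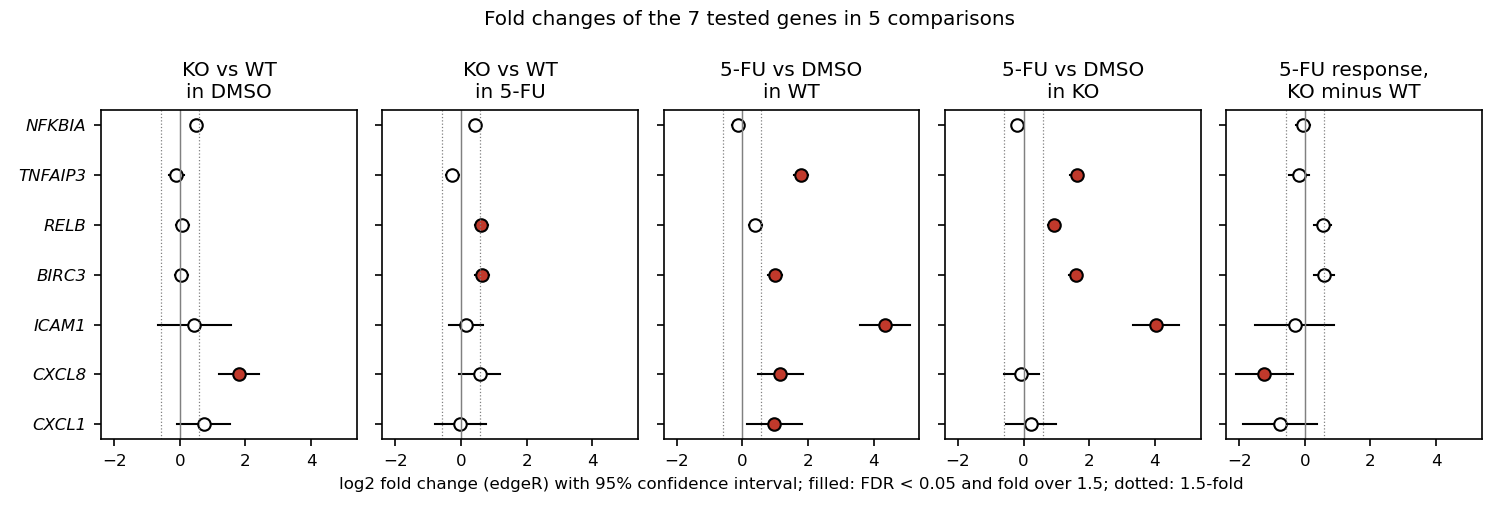
Log2 fold changes (x axis) with 95% confidence intervals of the 7 tested genes (y axis) in 5 comparisons, from edgeR. Filled points passed an FDR of 0.05 and 1.5-fold, and dotted lines mark 1.5-fold. *ICAM1* lies at 4.35 and 4.05 for 5-FU in *WT* and KO cells, and *CXCL8* is filled at 1.81 for KO against *WT* in DMSO and at -1.24 for the difference between the 5-FU responses.

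Of the 5 chemokines of the set, *CXCL8* (interleukin 8, which attracts neutrophils, chr4:73740519-73743716, plus strand, 4 exons) had the highest level and differed between the genotypes in DMSO. Its level was 0.866, 0.441 and 0.637 CPM in *WT* DMSO (10 to 24 counts) and 2.8, 2.43 and 1.74 CPM in KO DMSO libraries (53 to 67 counts). With 5-FU it was 1.17 and 1.82 CPM in *WT* (45 and 53 counts) and 2.34, 1.93 and 2.3 CPM in KO libraries (52 to 59 counts). The *WT* DMSO libraries were below all others, and the KO libraries overlapped between treatments. KO cells had 3.5-fold more in DMSO (log2 fold change 1.81 ± 0.29, SE; FDR = 8.7e-05, edgeR). 5-FU raised it 2.24-fold in *WT* cells (1.16 ± 0.32; FDR = 0.00505), and in KO cells the change was -0.08 (95% confidence interval -0.61 to 0.46, FDR = 0.808). In 5-FU the genotypes differed by 0.57 (-0.05 to 1.18, FDR = 0.115).

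The 5-FU response of *CXCL8* was smaller in KO than in *WT* cells by -1.24 on the log2 scale (-2.11 to -0.37, FDR = 0.0345). This call rests on few counts: leaving out 1 library raised its FDR to between 0.0522 and 0.133 for 8 of the 11 libraries, while the estimate stayed between -1.54 and -0.90. Those 8 were *WT* DMSO replicates 2 and 3, KO DMSO replicates 1 and 2, *WT* 5-FU replicate 3 and all 3 KO 5-FU libraries. Without *WT* 5-FU replicate 3, the rise in *WT* cells was 0.83 (FDR = 0.0725) and the difference between genotypes in 5-FU was 0.90 (FDR = 0.048).

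*CXCL1*, another neutrophil attractant (chr4:73869393-73871308, plus strand, 4 exons), was at 0.397, 0.485 and 0.347 CPM in *WT* DMSO, 0.543, 0.979 and 0.526 CPM in KO DMSO, 0.906 and 0.685 CPM in *WT* 5-FU and 0.713, 0.631 and 1.04 CPM in KO 5-FU libraries, from 11 to 35 counts each. The *WT* DMSO libraries were the lowest of the 4 groups. 5-FU raised it 1.98-fold in *WT* cells (log2 fold change 0.98, 95% confidence interval 0.14 to 1.82, FDR = 0.0424, edgeR). That call was lost with DESeq2 (FDR = 0.0918), in a fit with no filter on low counts (0.0645), without *WT* DMSO replicate 1 (0.0848) or 3 (0.117), without *WT* 5-FU replicate 2 (0.236) and without KO 5-FU replicate 1 (0.0521). In DMSO, KO cells differed from *WT* cells by 0.74 (-0.07 to 1.54, FDR = 0.128), and in 5-FU by -0.02 (-0.80 to 0.77). Of the 31-base stretches of the *CXCL1* transcript, 14.4% also occur in *CXCL2*, so the counts of *CXCL1*, *CXCL2* and *CXCL3* may be partly exchanged.

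*CXCL2* (chr4:74097040-74099196, minus strand) had 2 to 13 counts per library, *CXCL3* (chr4:74036589-74038807, minus strand) 5 to 16, and *CCL20* (chr2:227805739-227817564, plus strand), which attracts cells that carry CCR6, 0 to 2. *CXCL2* was at 0.18, 0.353 and 0.289 CPM in *WT* DMSO, 0.167, 0.213 and 0.164 in KO DMSO, 0.337 and 0.342 in *WT* 5-FU and 0.119, 0.26 and 0.0835 CPM in KO 5-FU libraries. *CXCL3* was at 0.577, 0.309 and 0.174 CPM in *WT* DMSO, 0.292, 0.511 and 0.493 in KO DMSO, 0.259 and 0.308 in *WT* 5-FU and 0.198, 0.409 and 0.25 CPM in KO 5-FU libraries. In the 4 comparisons between groups both genes overlapped, except that *CXCL2* was higher in both *WT* 5-FU libraries than in the 3 KO 5-FU libraries. In a fit without the filter on low counts, that difference was -1.09 (95% confidence interval -2.45 to 0.26, FDR = 0.295), and no comparison of the 3 genes passed. Summed over a group, *CCL20* had 1 count in *WT* DMSO (exact 95% Poisson interval 0.0253 to 5.57), 5 in KO DMSO (1.62 to 11.7), 1 in *WT* 5-FU and 1 in KO 5-FU, and a change was not detectable at this depth.

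The rest of the pathway was read from lists of its parts. Among the 4 other subunits, *REL* alone was called, lower with 5-FU in *WT* cells (10.8 to 7.25 CPM, log2 fold change -0.59, FDR = 0.00758, edgeR). Of all genes tested, 9.38% were called lower there. *RELA*, *NFKB1* and *NFKB2* were not called in any comparison. *NFKB1* fell with 5-FU in *WT* cells by nearly as much as *REL* (64 to 43.1 CPM, -0.57), just below the fold threshold. By the FDR alone, 2 of the 4 were lower there. *RELA* had mean levels of 91.2 to 104 CPM and *NFKB2*, the partner of RELB, of 139 to 192 CPM. The median log2 fold change of these 4 genes with 5-FU was -0.23 in *WT* and 0.06 in KO cells.

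Of 12 other inhibitors of NF-κB, 3 were called in at least 1 comparison. With 5-FU, 1 was called higher and 1 lower in each genotype. Of all genes tested, 18.5% and 9.38% were so called in *WT* and 13.3% and 12% in KO cells. *TNIP1*, which assists A20, rose with 5-FU in *WT* (66.2 to 114 CPM, log2 fold change 0.79, FDR = 7.08e-09, edgeR) and in KO cells (65.7 to 105 CPM, 0.67, FDR = 1.7e-08). *BCL3*, a nuclear IκB protein, fell with 5-FU in *WT* (-0.74, FDR = 1.38e-05) and KO cells (-0.80, FDR = 1.09e-06), and in DMSO was higher in KO cells (0.59, FDR = 5.04e-05). *NFKBIZ*, another nuclear IκB protein, was at 4.04 and 2.71 CPM in *WT* 5-FU and at 5.9, 7.28 and 7.01 CPM in KO 5-FU libraries, higher in KO cells (0.98, FDR = 0.00046), and its responses differed by 0.77 (FDR = 0.0334). The median of the list with 5-FU was 0.05 in *WT* and 0.21 in KO cells.

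Of 23 tested genes of the IKK complex and its adaptors, 3 were called higher and 1 lower with 5-FU in *WT* cells (18.5% and 9.38% of all genes tested), and 2 higher and none lower in KO cells (13.3% and 12%), shares no larger than those of all genes. *MAP3K14*, the kinase NIK of the non-canonical arm, rose from 20 to 47.1 CPM in *WT* (log2 fold change 1.23, FDR = 1.03e-08) and from 22.3 to 36.3 CPM in KO cells (0.71, FDR = 2.63e-06). *TAB3*, a partner of the kinase TAK1, rose in *WT* (0.96, FDR = 2.83e-09) and KO cells (1.03, FDR = 3.85e-10), *TRADD* rose in *WT* cells (0.66, FDR = 4.75e-06), and *TRAF2* fell there (-0.59, FDR = 1.3e-05). With 5-FU, *RIPK1* (0.66, FDR = 1.37e-06) and *TRAF2* (0.65, FDR = 8.41e-06) were higher in KO than in *WT* cells, and *TRAF1* (-1.12, FDR = 0.000362) and *SHARPIN* (-0.83, FDR = 1.06e-06) were lower. *TRAF1* was lower in KO cells in DMSO as well (-0.71, FDR = 0.009), and *CHUK*, which encodes IKKα, differed in its response (0.64, FDR = 0.000266). The median of the list was 0.07 with 5-FU in *WT* and 0.06 in KO cells.

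Of 16 receptors that signal to NF-κB, 14 were tested. *TLR3*, a receptor of double-stranded RNA, rose in every 5-FU library, from 4.72 to 5.6 CPM in *WT* DMSO to 34.9 and 36.9 CPM in *WT* 5-FU (log2 fold change 2.80, FDR = 6.81e-13) and from 6.01 to 7.45 CPM in KO DMSO to 36 to 38.9 CPM in KO 5-FU libraries (2.52, FDR = 8.55e-13). *IL1R1*, the interleukin 1 receptor, fell in *WT* (-1.18, FDR = 7.04e-07) and KO cells (-1.26, FDR = 9.01e-08). Its coreceptor *IL1RAP* was lower in KO cells in DMSO (-1.02, FDR = 4.33e-06) and rose with 5-FU in KO cells (1.32, FDR = 8.38e-08), and its responses differed by 1.23 (FDR = 8.97e-05). *IL18R1* fell with 5-FU in KO cells (-1.21, FDR = 9.18e-05), with a difference between responses whose 95% confidence interval ran from -1.62 to -0.37 (FDR = 0.0203), and with 5-FU was lower in KO than in *WT* cells (-0.88, FDR = 0.00419), as was *TLR5* (-0.74, FDR = 0.00665). The responses of *TLR6* differed by -0.77 (FDR = 0.0307). With 5-FU, 1 gene of the list was called higher and 1 lower in *WT* cells (18.5% and 9.38% of all genes tested). In KO cells 2 were called higher and 3 lower (13.3% and 12% of all genes tested).

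Most other cytokines and chemokines were silent. *TNF* and *IL6*, the cytokines most often used to read NF-κB activity, had at most 1 count in any library, and *IL1B* at most 4. Of 15 cytokines 8 were tested, and 5 were called higher with 5-FU in each genotype (all genes tested, 18.5% in *WT* and 13.3% in KO cells). *IL1A* and *CSF2* never reached 20 counts in DMSO and entered the test through 5-FU libraries, so the count and the median below describe the 8 tested genes and not the list. *TGFA*, a ligand of the EGF receptor, rose from 69.9 to 177 CPM in *WT* (log2 fold change 1.34, FDR = 1.19e-11) and from 72 to 178 CPM in KO cells (1.30, FDR = 5.48e-12), and *CSF1*, a growth factor of macrophages, by 1.43 (FDR = 5.45e-09) and 1.56 (FDR = 4.33e-10). *IL1A* had 2 counts in all *WT* DMSO libraries together and 8 and 21 counts in the *WT* 5-FU libraries. In KO cells it had 2 to 7 counts per DMSO library and 55 to 69 counts per 5-FU library (3.97, FDR = 3.17e-06), and with 5-FU it was higher in KO than in *WT* cells (2.47, FDR = 0.000384). *CSF2* had 2 counts in all *WT* DMSO libraries together and 23 and 13 counts in *WT* 5-FU, and in KO cells it rose from 1 to 5 counts per library to 13 to 18 (2.57, FDR = 0.000901). *IL11* was called higher in KO cells in DMSO (0.63, FDR = 0.00647). The median of the 8 genes with 5-FU was 1.25 in *WT* and 1.02 in KO cells.

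Of 14 other chemokines 3 were tested, *CCL22* only through its *WT* 5-FU libraries. *CXCL16*, a membrane-bound chemokine, rose by a log2 fold change of 0.59 with 5-FU both in *WT* (80.3 to 121 CPM, FDR = 8.74e-07) and in KO cells (61.4 to 92.3 CPM, FDR = 4.27e-07). *CCL22* rose with 5-FU in *WT* cells (9, 2 and 8 counts in DMSO, 44 and 22 in 5-FU, log2 fold change 2.09, FDR = 0.00236), and with 5-FU it was lower in KO cells, which had 2, 5 and 3 counts (-2.82, FDR = 0.000702). It had 2 counts in all KO DMSO libraries together, where it was called lower than in *WT* cells, and *CCL28* was called higher there (0.455 and 0.911 CPM in *WT* and KO cells, FDR = 0.022). *CXCL10*, which interferon and NF-κB induce together, had at most 1 count in any library.

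Among 21 tested NF-κB target genes outside the 10, 8 were called higher and 1 lower with 5-FU in each genotype, where 18.5% and 9.38% of all tested genes were called in *WT* and 13.3% and 12% in KO cells. The median log2 fold change was 0.37 in *WT* and 0.36 in KO cells, beside 0.03 and -0.06 for all genes tested. *PTGS2*, which encodes cyclooxygenase 2, was at 0, 0.309 and 0.26 CPM in *WT* DMSO, 0.543, 1.19 and 0.822 in KO DMSO, 0.699 and 0.753 in *WT* 5-FU and 4.4, 3.9 and 4.72 CPM in KO 5-FU libraries. KO cells had more in DMSO (2.15, FDR = 0.0026, edgeR) and in 5-FU (2.57, FDR = 7.02e-05), and 5-FU raised it in *WT* (1.92, FDR = 0.00649) and KO cells (2.34, FDR = 2.48e-05). *PTGS2* had at most 9 counts in a *WT* DMSO library and entered the test through the other groups, so its changes against *WT* DMSO are a description. *LAMB3*, a laminin chain, rose by 2.19 in *WT* (FDR = 1.64e-13) and by 1.31 in KO cells (FDR = 2.28e-11), with a difference of -0.88 (FDR = 4.52e-06). *NINJ1*, a protein of membrane rupture, rose by 1.62 (FDR = 9.48e-10) and 1.57 (FDR = 4.45e-10), and *TAP1*, a peptide transporter of antigen presentation, by 1.24 (FDR = 5.46e-12) and 1.41 (FDR = 4.38e-13).

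Between genotypes, 3 of these targets were called higher and 3 lower in KO cells under each treatment, where 9.1% and 4.97% of all tested genes were called in DMSO and 7.58% and 10.6% in 5-FU. *IER3*, an early response gene, was higher in DMSO (239 to 418 CPM in *WT* and KO, 0.81, FDR = 4.04e-09) and in 5-FU (0.67, FDR = 1.55e-07). *GADD45B*, a stress response gene, was lower in DMSO (-0.79, FDR = 3.28e-07) and 5-FU (-0.84, FDR = 3.13e-07). *MMP9* was lower in both (-1.51, FDR = 0.0147, and -1.63, FDR = 0.00849) on 2 to 20 counts per library. It reached 20 counts only in *WT* 5-FU replicate 2 and entered the test through that library. Its values, and its place among the genes called lower, are therefore a description. *CD83* was higher in 5-FU (0.93, FDR = 9.44e-07). The responses were larger in KO cells for *TNFAIP8* (0.78, FDR = 0.000415) and *CD83* (0.62, FDR = 0.00263) and smaller for *BCL2L1* (-0.77, FDR = 4.39e-06).

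**Figure D4:**
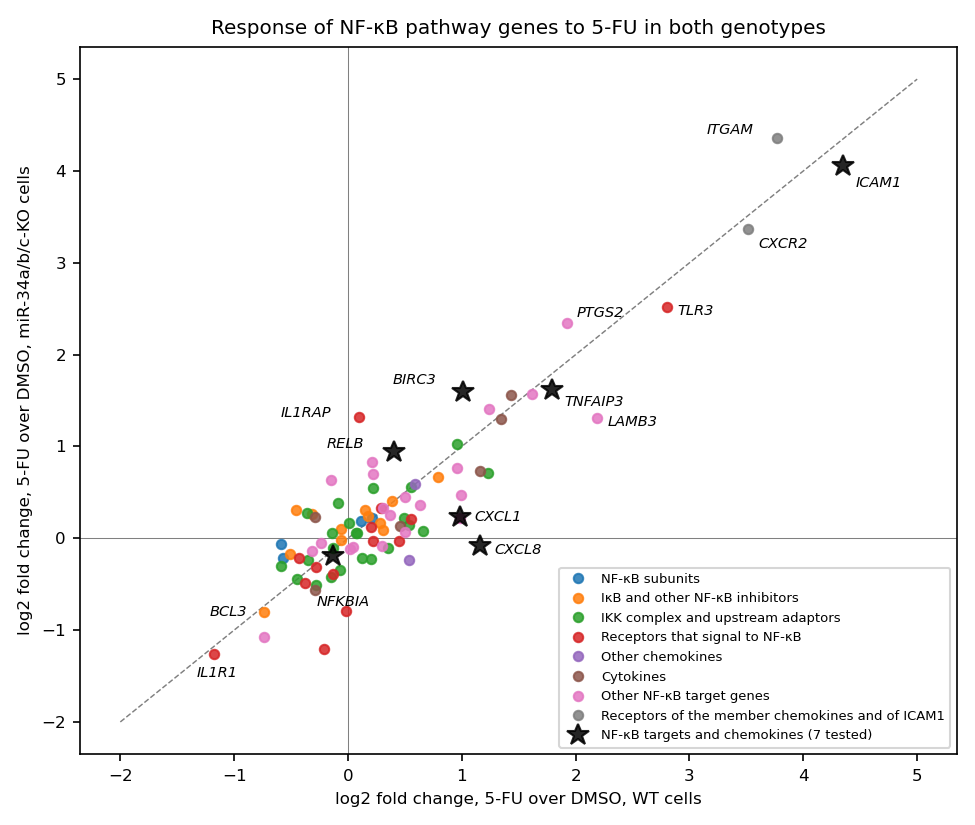
Log2 fold change with 5-FU in *WT* cells (x axis) against that in KO cells (y axis) of the tested genes of the pathway lists, coloured by list, with the 7 tested genes of the set as stars and equal responses on the dashed line. *CCL22*, *CSF2* and *IL1A*, with 3 or fewer counts in a whole group, are left out. *ICAM1* lies near the line at the upper right, *BIRC3* and *RELB* above it, *CXCL8* and *CXCL1* below it, and *NFKBIA* near 0 on both axes.

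Across the 11 libraries, the log2 levels of *ICAM1*, *TNFAIP3*, *RELB* and *BIRC3* went together, with Pearson's r between 0.79 and 0.95 for their 6 pairs. *NFKBIA* had r between -0.35 and 0.18 with *CXCL1*, *TNFAIP3*, *ICAM1*, *RELB* and *BIRC3*, and 0.59 with *CXCL8*. These values describe 11 libraries that fall into 4 groups, and are not tests. Among 13998 genes with a mean of at least 1 CPM, the 5 most like *CXCL8* were *ZNF596* (r = 0.955), *RGS6* (0.954), *GOLGB1* (0.950), *VCAN* (0.948) and *ZSCAN30* (0.947). Those most like *NFKBIA* were *ALG2* (0.975), *TERF2* (0.967), *EIF2AK3* (0.967), *SERPINE2* (0.966) and *AC133644.3* (0.965). *SERPINE2*, a protease inhibitor, was at 194 and 393 CPM in *WT* and KO DMSO cells and at 153 and 303 CPM in 5-FU.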

How the data were processed

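RNA-seq of 12 HCT116 libraries was used. The authors aligned the reads to GRCh38 (hg38) with CLC Genomics Workbench and deposited whole-number counts per gene. Samples were grouped by their titles. The 10 genes and all lists were chosen with earlier results of these data known. Of 12 libraries 11 were used. Genes reaching 20 counts in any library, scaled with upper-quartile factors (0.955 to 1.05), were fitted together in edgeR 4.0.16 (R 4.3.3), with 1 mean per group and a quasi-likelihood test. The interaction is the 5-FU response in KO minus that in *WT* cells. The biological coefficient of variation was 6.72%. All 10 genes were named, and of each other list up to 4 called genes with the largest change per comparison, with *IER3* in 5-FU added. Levels of the genes most like *CXCL8* and *NFKBIA*, the 5 with the highest r, used log2 CPM with a prior count of 2. Gene coordinates and transcripts are from GENCODE v44 (GRCh38) and sequences from RefSeq. Poisson intervals cover counting error only. Whether the counting used strand is not given in the sources used here, so overlapping opposite-strand lncRNAs (*TNFAIP3*, *ICAM1*, *BIRC3*) cannot be told apart. Alternatives were TMM factors, DESeq2 1.42.0, other filters and thresholds, glmTreat (a test against 1.5-fold), 1 RUVg factor, a replicate block, each library left out, and the identical library as labelled.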

Additional observations from a re-analysis of the deposited data

Results flagged for a closer look

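By edgeR's test of the difference itself, 4207 of all 16123 genes tested had an FDR below 0.05. The response to 5-FU differed in this way between the genotypes for 3 of the 10 genes. It was smaller in KO cells for *CXCL8* (-1.24 on the log2 scale, FDR = 0.0345), with mean levels of 0.648 and 1.49 CPM in *WT* and 2.32 and 2.19 CPM in KO cells without and with 5-FU. It was larger in KO cells for *RELB* (0.54, FDR = 0.00557) and *BIRC3* (0.58, FDR = 0.00583), with every KO 5-FU library above every other library. The cause of these differences was not tested.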

How the results depend on the processing

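Main counts of called genes among the 10 were 1 for KO against *WT* in DMSO, 5 and 4 for 5-FU in *WT* and KO cells, 2 for KO against *WT* in 5-FU and 1 for the interaction. The interaction count became 3 with TMM factors and DESeq2, and 2 with no filter. Of all genes in these fits, 1520, 1377 and 1743 were called for the interaction. With 20 counts required in every library, 4 genes remained to test. The counts were 0 in DMSO, 2 for 5-FU in *WT* and 0 for the interaction (1574, 3259 and 1480 of all genes so tested). With the FDR alone they were 2 in DMSO, 4 in 5-FU and 3 for the interaction, of 7 genes tested. Of all 16123 genes tested, 7472, 7995 and 4207 passed the FDR in these comparisons. With glmTreat the counts were 3 for 5-FU in *WT*, 0 between genotypes in 5-FU and 0 for the interaction. Of all 16123 genes tested, 2573, 1187 and 289 were called by glmTreat in these comparisons. With 1 RUVg factor the first 3 counts were 0 and that in 5-FU was 1. In that fit 2 and 0 of all tested genes were called for 5-FU in *WT* and KO cells, and the median of all genes moved to 0.105 in *WT*. Between genotypes, it called 831 of all tested genes in DMSO and 2794 in 5-FU. With the identical library as labelled, 0 of the 10 and 0 of all tested genes were called for 5-FU in *WT*. Leaving out 1 library gave 1 to 1, 4 to 5, 4 to 4, 1 to 2 and 0 to 3 calls, in the same order.

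Values that changed sign were *CXCL1* between genotypes in 5-FU (0.02 with TMM factors, 0.04 with DESeq2, 0.29 with the identical library), *NFKBIA* in the interaction (0.0015, 0.02 and, with RUVg, 0.02), *TNFAIP3* (0.12 in 5-FU, 0.21 in the interaction) and *ICAM1* (0.29 in the interaction) with the identical library, and, with RUVg, *CXCL8* for 5-FU in KO (5.60) and *RELB* (-0.35, -1.70 and -0.93 in the first 3 comparisons). Of these, only the rise of *RELB* in KO cells had been called. With 1 library left out, sign changes occurred for *CXCL1* (-0.01 to 0.57 for 5-FU in KO, -0.26 to 0.21 in 5-FU), *CXCL8* (-0.26 to 0.08 for 5-FU in KO), *NFKBIA* (-0.10 to 0.03, interaction), *ICAM1* (-0.07 to 1.17 in DMSO, -1.03 to 0.22, interaction) and *BIRC3* (-0.01 to 0.10 in DMSO), none of them called. With a replicate block the interaction count was 2, where 1517 of all tested genes were called. In that fit the rise of *CXCL1* in *WT* cells was lost (0.88, FDR = 0.0918) and its difference in 5-FU was 0.09. To look for pairing, the deviations of log2 CPM from the group means were correlated between libraries of different groups. Same-numbered libraries gave r of -0.0914 to 0.0782 over 15 pairs, and other libraries -0.15 to 0.15 over 30 pairs. The numbers thus gave no sign of pairing the libraries. The cause of these changes was not tested.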
